A study of Mus musculus with 18 samples.

Results

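Immediate early genes are genes whose transcription rises within minutes of a stimulus from factors already present in the cell. Their levels were read from RNA-seq of mouse hindlimb muscle at 3 ages. The members were 10 genes chosen by name (Fos, Fosb, Jun, Junb, Egr1, Atf3, Ier2, Nr4a1, Nr4a2 and Nr4a3), out of 23420 genes in the table. All 10 were in the table and all 10 passed the filter on low values, a mean of at least 10 normalized counts over the libraries, which 13178 genes passed. Female C57BL/6J mice were 2 months (2 m), 20 months (20 m) or 28 months (28 m) old, with 3 mice per age, and 1 poly-A RNA library per mouse. DNA of the same muscles and of spleen T cells was captured by MBD-seq, in which a methyl-CpG-binding domain retains methylated fragments, as 1 pool of 3 mice per age. A normalized count is the number of reads on a gene divided by a size factor that makes the libraries comparable.

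The products of immediate early genes are mostly transcription factors that switch on a second wave of genes. FOS and JUN proteins pair to form the AP-1 dimer, EGR1 is a zinc-finger factor, ATF3 is a stress-induced partner of JUN proteins, and the NR4A proteins are orphan nuclear receptors. Signals reach these genes mainly through MAP kinases acting on SRF and its ELK cofactors, and through cAMP and calcium acting on CREB. In skeletal muscle they are known to respond to contraction, injury and handling of the tissue, and Nr4a1 and Nr4a3 are known for their part in glucose and oxidative metabolism.

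The CREB-binding cis element (CRE) has the core TGACG. The core, read on both strands, was present in the 250 bases before the start given in the RefSeq promoter table (GRCm38.p6) for 7 of the 8 members it holds, against 26.8% of the 9793 tested genes with such a window and 17.9% of all 27025 windows. The core holds a CpG, and these shares were not matched for CpG content. The 8 windows had 15 to 44 CpGs, against a median of 16 over the tested genes. Nr4a1, Nr4a2 and Nr4a3 held 4 copies each, Fos held 2, and Fosb, Junb and Atf3 held 1 each. In Nr4a3 227 of the 250 bases are RefSeq exon of Nr4a3 itself, so most of its copies lie inside the longer transcript, and in Nr4a2 149 bases are RefSeq exon of another gene. In Fosb 73 bases are RefSeq exon of Fosb itself, and its copy, which begins 60 bases before the start, lies inside that exon. In Atf3 7 bases are GENCODE exon of Atf3 itself, and its copy begins 7 bases before the start. At least 3 copies were present in 1.46% of the tested genes. Jun had no copy in this window. The windows of Fos, Nr4a1 and Junb are shown because they hold 2, 4 and 1 copies and contain no annotated exon; capitals mark each TGACG or its reverse complement CGTCA.
Fos, chr12:85473640-85473889, plus strand: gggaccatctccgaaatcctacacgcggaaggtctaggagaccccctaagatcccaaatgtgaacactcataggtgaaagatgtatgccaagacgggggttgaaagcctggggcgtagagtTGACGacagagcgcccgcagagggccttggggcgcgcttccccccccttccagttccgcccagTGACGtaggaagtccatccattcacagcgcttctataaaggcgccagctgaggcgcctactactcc
Nr4a1, chr15:101266596-101266845, plus strand: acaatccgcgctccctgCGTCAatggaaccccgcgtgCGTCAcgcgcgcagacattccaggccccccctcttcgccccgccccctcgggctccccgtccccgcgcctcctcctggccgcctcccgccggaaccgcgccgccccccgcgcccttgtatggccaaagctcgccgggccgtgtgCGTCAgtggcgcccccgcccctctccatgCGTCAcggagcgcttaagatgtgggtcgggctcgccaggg
Junb, chr8:84978749-84978998, minus strand: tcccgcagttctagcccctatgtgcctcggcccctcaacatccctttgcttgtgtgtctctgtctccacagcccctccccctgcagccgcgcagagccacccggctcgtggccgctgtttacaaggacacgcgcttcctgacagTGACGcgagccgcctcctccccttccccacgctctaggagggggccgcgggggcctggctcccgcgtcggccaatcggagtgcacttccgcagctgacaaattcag
The Fos copies begin 129 and 66 bases before the start. In Nr4a1 they begin 233, 213, 69 and 40 bases before it, in a window inside the gene, upstream of a shorter transcript. In Junb the copy begins 106 bases before the start. The full CRE (TGACGTCA), the AP-1 site (TGANTCA) and the CArG box that binds SRF were found in 0 of the 8 windows, against 2.67%, 4.27% and 1.22% of the tested genes. A Sp1 site (GGGCGG) was found in 7 of the 8, against 59.1%. A TATA box (TATAAA on the gene's strand) was found in Fos only, against 4.02%. These matches describe the letters and not binding. The other 2 members, Egr1 and Ier2, had no window, and bases farther upstream were not searched for any member.

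The reads assigned to genes ranged from 20203833 to 71115244 per library, and the members had between 5 reads (Fosb, lowest library) and 12902 (Nr4a1, highest library). One library stood apart. In 2-m replicate 1 the summed level of 8 granulocyte and marrow markers was 5356 normalized counts, against 16.8 to 86.1 in the other 8 libraries, and 6 red-cell genes summed to 9981 against 1701 to 3882, with Hba-a1 listed at 0 in all 9. The libraries numbered 3 at each age differed from those numbered 1 and 2, with 29.6 to 32.5% of gene reads in the 10 highest genes against 43.1 to 48.4%. The labels name no batch, and these libraries are spread evenly over the ages. All 8 muscle fibre markers passed the filter, with Myh2 higher and Pvalb and Mylpf lower at both older ages. Of the marrow markers, Mpo passed the test as lower at both older ages, and of 4 satellite-cell genes tested Chodl was lower at 28 m and, with both older ages against 2 m, so was Pax7 (log2 fold change -1.29, adjusted p = 0.0276, limma). The 6 fibroblast genes summed to 51087 to 106410 at 2 m and 21815 to 29894 at 20 m and 28 m, with Col1a1, Col1a2 and Col3a1 lower at both older ages. Pdgfra, Dcn and Lum were called at neither age. Their log2 fold changes were -0.19, -0.16 and -0.58 at 20 m, and -0.12, -0.18 and -0.25 at 28 m. Of 6 fat markers, 5 passed as lower at 20 m (Cfd, Retn, Plin1, Adipoq and Cidec) and 2 at 28 m (Cidec and Cfd), whereas Lep was called at neither age. Their sum was 1656 to 4741 at 2 m, 528 to 803 at 20 m and 670 to 1718 at 28 m, so that the 28-m mice overlapped the 2-m mice. None of 7 endothelial, 4 smooth-muscle or 4 red-cell genes tested passed the test in any contrast, and of the 8 macrophage genes 2 (C1qa and C1qb) fell at 20 m. Without 2-m replicate 1, Myh2 and Mpo at both ages, C1qa, C1qb, Adipoq, Plin1 and Cidec at 20 m, Mylpf at 28 m and Pax7 were no longer called, whereas the 3 collagen genes, Pvalb and Cfd were called at both ages. The log2 fold changes of C1qa, C1qb, Mylpf and Pax7 were then -0.56, -0.60, -0.41 and -1.40, against -0.59, -0.61, -0.46 and -1.29 with all libraries. Those of Adipoq, Plin1 and Cidec were -1.09, -1.25 and -0.99, against -1.50, -1.62 and -1.36. Myh2 gave 0.56 and 0.46 at the 2 ages, against 0.80 and 0.70, and Mpo gave -3.60 at each, against -5.16. The part of these marker differences in the members' differences was not tested. In whole muscle, fewer cells of a type and less RNA per cell cannot be told apart.

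The members differed widely in level. Per kilobase of the longest GENCODE transcript and averaged over the 9 libraries, Nr4a1 was highest at 2444 normalized counts per kb. Jun followed at 1512, then Junb at 331, Fos at 233, Atf3 at 196, Ier2 at 169 and Egr1 at 131. Nr4a3 at 40.1, Nr4a2 at 23.7 and Fosb at 8.06 were the lowest. Nr4a1 and Jun therefore stood within the upper 5.02% and 8.11% of the 12452 tested genes with a transcript length, and Fosb lay below 92.1% of them. The order changed with age. At 2 m Fos (104 ± 12.4 per kb, SD, n = 3), Atf3 (106 ± 25.2) and Egr1 (84.7 ± 9.27) were below Ier2 (184 ± 51.9), whereas at 28 m Ier2 (156 ± 24.5) was below Fos (243 ± 21.2). At 2 m Fos and Atf3 differed by less than either SD, and Nr4a2 (26.9 ± 7.59) and Nr4a3 (18.6 ± 3.17) differed by less than the sum of their SDs. At 28 m Egr1 (167 ± 20.5) and Ier2 differed by less than either SD, and so did Fos and Atf3 (257 ± 96.1).

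**Figure D1:**
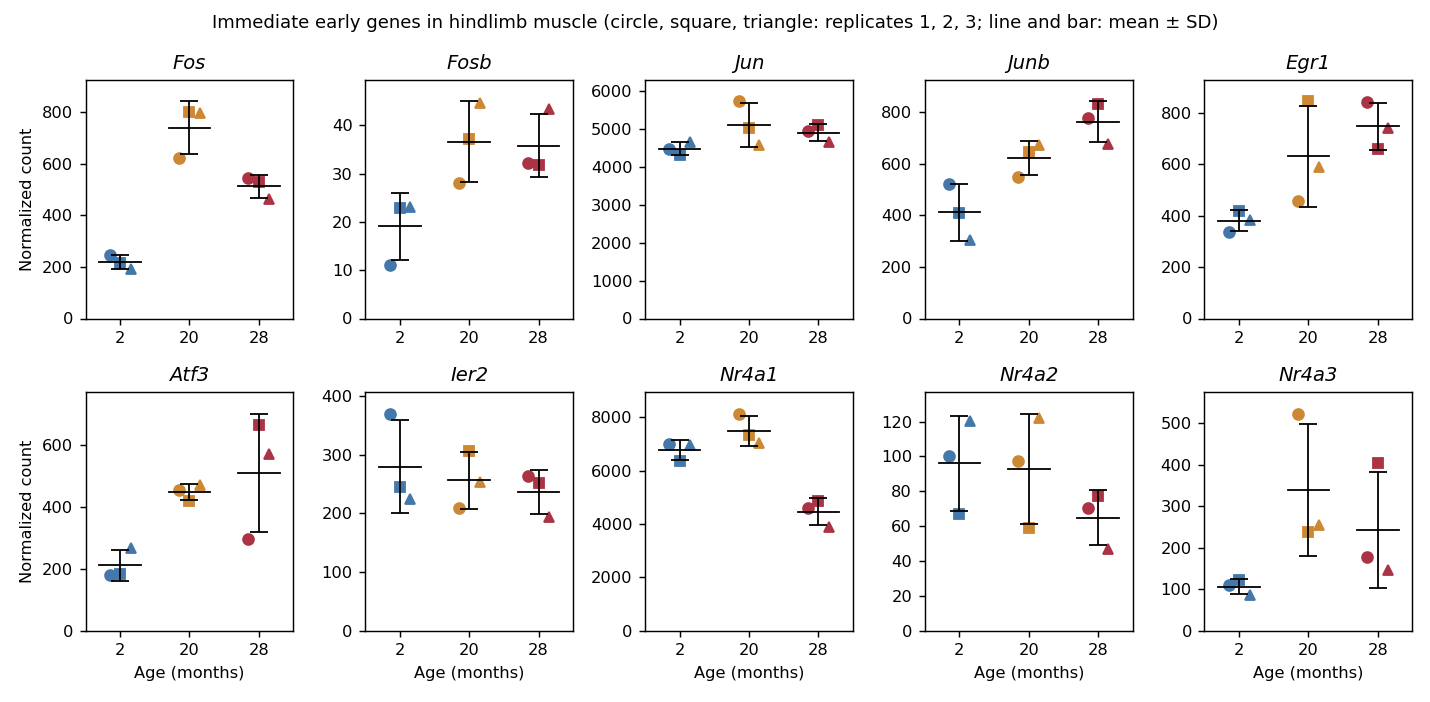
Normalized count (vertical axis, from 0) of each immediate early gene in each of the 9 muscle libraries by age in months; points are mice, with circle, square and triangle for replicates 1, 2 and 3, and the line and bar give the mean ± SD. Fos lies at 193 to 245 in all 2-m mice and at 462 or more in every older mouse, while Nr4a1 falls to 3894 to 4878 at 28 m.

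The first comparison asks which members differed between 2-m and 20-m muscle. Fos, Nr4a3, Atf3, Egr1 and Junb were higher at 20 m, by 1.54-fold to 3.38-fold as converted from the log2 fold changes, and no member was called lower. The 5 that passed were read against a background of 16.6% of all tested genes called in this contrast (9.42% called higher), by limma at a Benjamini-Hochberg adjusted p under 0.05 over the 13178 genes. The members were chosen with earlier results of these data known, so such counts beside the shares over all genes are descriptions. When a call instead needed more than a 2-fold change with p below 0.05 before adjustment, 3 members passed (Fos, Nr4a3 and Atf3), against a background of 5.17%. The lowest 20-m mouse was above the highest 2-m mouse for 7 members, all in the direction of higher levels at 20 m; groups did not overlap, in either direction, for 36.0% of all genes. The median log2 fold change was 0.66 over the members and -0.02 over all tested genes. Fos and Atf3 passed under every alternative tried, and Junb, Egr1 and Nr4a3 did not. Without 2-m replicate 1, the library rich in marrow markers, 4 members remained and Egr1 was no longer called, although its log2 fold change was 0.61 there against 0.69 with all libraries (adjusted p = 0.0907, limma). With replicates 1 and 2 only, Fos, Atf3 and Nr4a3 remained.

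Between 2-m and 28-m muscle, Fos, Atf3, Egr1 and Junb were higher at 28 m and Nr4a1 was lower. These 5 called members stood against 13.8% of all tested genes called, 7.53% called higher and 6.24% called lower. By the fold-change rule 3 members passed (Fos, Atf3 and Nr4a3), against 5.14%, and without 2-m replicate 2 that count was 5. Groups did not overlap for 8 members, of which 7 were higher and Nr4a1 was lower, against 30.3% of all genes. The median log2 fold change of the members was 0.92, against -0.01 over all genes. By adjusted p under 0.05, 5 members were called without 2-m replicate 1 as well. With replicates 1 and 2 only, the number called by adjusted p was 4, since Egr1 no longer passed (adjusted p = 0.0600, limma).

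Between the older ages, Nr4a1 alone of the members passed, lower at 28 m than at 20 m, where 0.379% of all tested genes were called and 0.167% were called lower. Fos and Nr4a1 were lower and Junb was higher without overlap of the groups, 3 members of 10 against 17.5% of all genes. The median log2 fold change of the members was -0.08. With both older ages set against 2 m, Fos, Nr4a3, Atf3, Egr1 and Junb were called higher, against 20.1% of all genes called and 11.2% called higher. Of these, Fos, Junb, Egr1 and Atf3 reached the smallest p that an exact two-sided permutation test of 3 against 6 mice allows (p = 0.0119), as did Fosb. Nr4a3 gave p = 0.0357 in the same exact test. With 3 mice against 3, the exact test cannot go below p = 0.1. The contrasts with 2 m share the same 3 control mice.

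**Figure D2:**
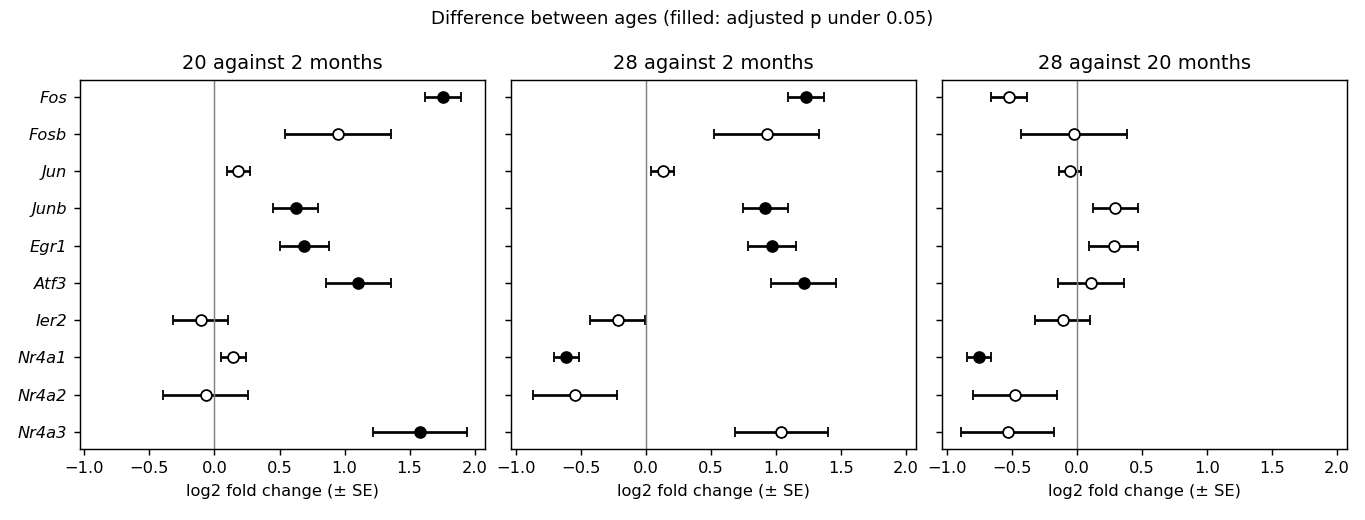
Log2 fold change (horizontal axis) ± SE of each member in the 3 contrasts, from limma on log2(normalized count + 1) of all 9 libraries; filled points have an adjusted p under 0.05. Fos, Junb, Egr1 and Atf3 are filled and right of 0 in both contrasts with 2 months, and Nr4a1 is filled and left of 0 in both contrasts of 28 months.

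Fos encodes the FOS subunit of AP-1, which binds DNA only when paired with a JUN protein. It read 245, 217 and 193 normalized counts in the 2-m mice, 624, 801 and 797 at 20 m, and 547, 530 and 462 at 28 m. Every older mouse was above every 2-m mouse, and every 28-m mouse was below every 20-m mouse. The log2 fold change was 1.76 ± 0.14 (SE) at 20 m (adjusted p = 1.88e-05, limma) and 1.23 ± 0.14 at 28 m (adjusted p = 0.000148). From 20 m to 28 m it was -0.52 ± 0.14, which did not pass (adjusted p = 0.158); DESeq2 on the recovered reads called this difference (adjusted p = 0.0327). Both contrasts of Fos with 2 m passed under all 21 alternatives.

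Fosb, a close relative of Fos, was the lowest member. It read 11.1, 22.9 and 23.1 in the 2-m mice, 28.0, 37.1 and 44.7 at 20 m, and 32.3, 31.8 and 43.4 at 28 m. No older mouse overlapped the 2-m mice, but the log2 fold changes of 0.95 ± 0.41 at 20 m and 0.93 ± 0.41 at 28 m did not pass (adjusted p = 0.129 and 0.154, limma). The counting error expected of these few reads was 0.37 on the log2 scale, close to the spread of 0.40 measured between mice. Without 2-m replicate 1, its lowest library, the log2 fold changes were 0.62 and 0.60. With both older ages against 2 m the log2 fold change was 0.94 (adjusted p = 0.0788, limma), and it passed under 1 alternative of 19, quantile normalization (1.16, adjusted p = 0.0468).

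Jun, the JUN subunit of AP-1, was the second most abundant member per kb. It read 4453, 4314 and 4650 at 2 m, 5718, 5011 and 4573 at 20 m, and 4943, 5086 and 4658 at 28 m. The ages overlapped or adjoined each other. The log2 fold changes were 0.18 ± 0.09 and 0.13 ± 0.09, neither of which passed (adjusted p = 0.167 and 0.359, limma). Without 20-m replicate 1, its highest library, the first was 0.099. An antisense gene, Junos, overlaps 689 bases of Jun, and reads of the 2 strands cannot be told apart with this library kit.

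Junb encodes a JUN protein that often opposes JUN in growth control. It read 522, 409 and 303 at 2 m, 547, 645 and 674 at 20 m, and 778, 833 and 678 at 28 m. The 3 ages did not overlap, with the 28-m mice highest, although 20-m replicate 3 (674) and 28-m replicate 3 (678) lay side by side. The log2 fold change was 0.63 ± 0.17 at 20 m (adjusted p = 0.0267, limma) and 0.92 ± 0.17 at 28 m (adjusted p = 0.00406). The call at 20 m was lost with libraries rescaled to the same sum (adjusted p = 0.124), with replicates 1 and 2 only (log2 fold change 0.36, adjusted p = 0.175), with the 2-m and 20-m libraries alone (0.0581) and without 2-m replicate 3 (log2 fold change 0.42, adjusted p = 0.0792), 20-m replicate 2 (0.0869) or 20-m replicate 3 (0.0815). The call at 28 m passed under all 21 alternatives. Junb overlaps the gene Prdx2 on the other strand by 351 bases.

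Atf3 encodes a stress-induced factor that represses or activates with JUN partners. It read 181, 183 and 269 at 2 m, 456, 418 and 469 at 20 m, and 296, 663 and 570 at 28 m. The 20-m mice were close together, whereas 28-m replicate 1 lay near the highest 2-m mouse. The log2 fold change was 1.11 ± 0.25 at 20 m (adjusted p = 0.0109, limma) and 1.21 ± 0.25 at 28 m (adjusted p = 0.00753), and both passed under all 21 alternatives.

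Egr1, a zinc-finger factor that lies downstream of ERK and SRF, read 337, 419 and 384 at 2 m, 458, 844 and 591 at 20 m, and 841, 657 and 742 at 28 m. All older mice were above the 2-m mice, and the 20-m mice were the most spread. The log2 fold change was 0.69 ± 0.19 at 20 m (adjusted p = 0.0255, limma) and 0.97 ± 0.19 at 28 m (adjusted p = 0.00498). The 20-m call was kept in 14 of 21 alternatives. Without 20-m replicate 2, the highest mouse of that age, the log2 fold change was 0.46 (adjusted p = 0.0973, limma). It was 0.61 to 0.72 where the call was lost otherwise, by rescaling to the same sum (adjusted p = 0.110), with the 2-m and 20-m libraries alone (0.0563), with replicates 1 and 2 only (0.110), or without 2-m replicate 1 (0.0907), 2-m replicate 3 (0.0505) or 20-m replicate 3 (0.0521).

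Ier2 encodes a small nuclear protein of the early response. It read 370, 245 and 224 at 2 m, 209, 307 and 253 at 20 m, and 264, 253 and 194 at 28 m. The highest value belonged to 2-m replicate 1, the library rich in marrow markers, and the remaining 8 mice overlapped. The log2 fold changes were -0.11 ± 0.21 and -0.21 ± 0.21 (adjusted p = 0.773 and 0.551, limma), and without that library they were 0.11 and 0.0047.

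Of the NR4A genes, Nr4a1, also called Nur77, read 7012, 6354 and 6947 at 2 m, 8132, 7321 and 7029 at 20 m, and 4590, 4878 and 3894 at 28 m. The 28-m mice were below all other mice, and the 2-m and 20-m mice adjoined each other. The log2 fold change was 0.14 ± 0.09 at 20 m (adjusted p = 0.318, limma), -0.61 ± 0.09 at 28 m (adjusted p = 0.00114) and -0.75 ± 0.09 from 20 m to 28 m (adjusted p = 0.00273). Both calls of the lower level at 28 m were kept in 20 of 21 alternatives. They were lost with the libraries rescaled to the same sum (adjusted p = 0.0839 and 0.137), where the log2 fold changes were -0.57 and -0.73.

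Nr4a2, also called Nurr1 and best known in dopamine neurons, read 100.3, 67.0 and 121 at 2 m, 97.1, 59.1 and 122 at 20 m, and 70.2, 77.3 and 47.2 at 28 m. Its groups overlapped, and the log2 fold changes of -0.07 ± 0.32 and -0.55 ± 0.32 did not pass (adjusted p = 0.908 and 0.296, limma). Nr4a3, also called NOR-1, read 109, 123 and 87.4 at 2 m, 523, 238 and 256 at 20 m, and 178, 403 and 145 at 28 m. All 6 older mice were above the 2-m mice, with 1 mouse of each older age well above the other two. The log2 fold change was 1.58 ± 0.36 at 20 m (adjusted p = 0.0111, limma) and 1.04 ± 0.36 at 28 m, which did not pass (adjusted p = 0.0744). Without 20-m replicate 1, the highest mouse, the 20-m call was lost (log2 fold change 1.22, adjusted p = 0.0575). The 28-m difference passed in 4 of 21 alternatives. At an unchanged 1.04 it passed with a block for replicate number (adjusted p = 0.0407, limma) and with a term for replicates 3 (0.0378). It also passed with libraries rescaled to the same sum (1.08, adjusted p = 0.0448) and without 28-m replicate 3 (1.34, adjusted p = 0.0498). Without 28-m replicate 2, the highest mouse of that age, the log2 fold change was 0.60 (adjusted p = 0.245).

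The proportion between some members within a library differed between ages. These pairs were chosen after the values had been seen and carry no test. There were 0.0551, 0.0502 and 0.0415 Fos counts per Jun count in the 2-m mice, 0.109, 0.160 and 0.174 at 20 m, and 0.111, 0.104 and 0.0993 at 28 m. This ratio was higher in every older mouse than in any 2-m mouse. There were 0.0156, 0.0194 and 0.0126 Nr4a3 counts per Nr4a1 count at 2 m, 0.0643, 0.0325 and 0.0364 at 20 m, and 0.0389, 0.0827 and 0.0373 at 28 m. The log2 ratio was higher by 1.43 at 20 m and by 1.65 at 28 m, again without overlap with 2 m. The Nr4a2 to Nr4a1 ratio overlapped among all ages, with mean log2 ratios of -6.17 ± 0.36, -6.38 ± 0.55 and -6.10 ± 0.20 (SD, n = 3) at 2 m, 20 m and 28 m.

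The spread between mice of 1 age also differed among members. The residual SD after age was 0.11 on the log2 scale for Jun, 0.12 for Nr4a1 and 0.17 for Fos, against a median of 0.18 over all tested genes. It was 0.26 for Junb, 0.29 for Egr1 and 0.31 for Ier2. The widest were Fosb and Atf3 (0.40 and 0.41), Nr4a2 (0.45) and Nr4a3 (0.59), and Nr4a3 varied more than 89.2% of tested genes. Spread falls with level, so genes within 0.5 log2 units of each member's mean level are the closer yardstick. Their median was 0.22 for Nr4a3, 0.17 for Atf3, 0.15 for both Egr1 and Junb, 0.21 for Ier2 and 0.36 for Nr4a2, all below the member's own spread. It was 0.16 for Fos and 0.11 for both Jun and Nr4a1, close to theirs, and 0.59 for Fosb, above its own 0.40. The counting error expected of the reads was 0.14 for Nr4a3 and 0.10 for Atf3, less than the spread measured. The range within an age reached 2.24-fold for Atf3 at 28 m, 2.20-fold for Nr4a3 at 20 m and 2.77-fold for Nr4a3 at 28 m.

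**Figure D3:**
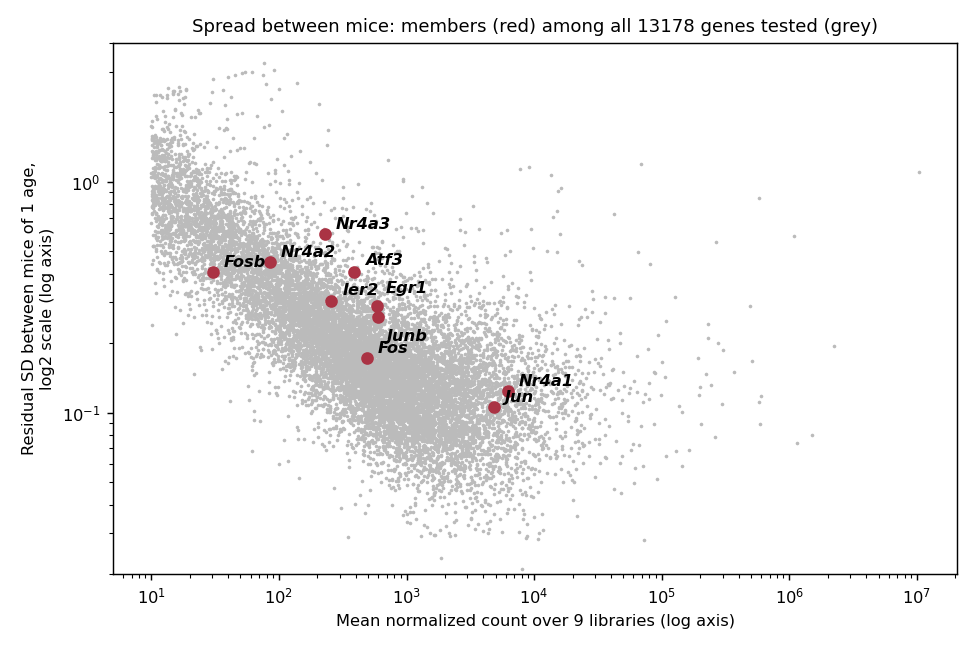
Residual SD between mice of 1 age (vertical, log2 scale, log axis) against the mean normalized count over 9 libraries (horizontal, log axis), with the 13178 genes tested in grey and the members in red. Nr4a3 at 0.59 and Atf3 at 0.41 lie above most genes of similar level, and Jun at 0.11 and Nr4a1 at 0.12 lie among them.

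Members did not rise and fall together in every mouse. At 28 m replicate 2 was the highest of its age for 6 of 10 members (Jun, Junb, Atf3, Nr4a1, Nr4a2 and Nr4a3) and replicate 3 was the lowest for 7. At 20 m replicate 1 was the lowest for Fos, Fosb, Junb, Egr1 and Ier2 but the highest for Jun, Nr4a1 and Nr4a3. At 2 m each library was the highest for some members and the lowest for others. Members read in 1 library share its RNA, so these counts are descriptions.

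Of the genes tested that were no members, the 8 whose profile over the 9 libraries lay nearest to the mean profile of the members were Prune, Cirh1a, Ercc4, Mb21d2, Llgl2, Bcl2l1, Sqstm1 and Guk1. Each profile was set to mean 0 and SD 1, and the root mean square difference was 0.226 for Prune and 0.300 for Guk1, against a median of 1.35 over all genes that were no members. Among the members themselves Fos lay nearest at 0.289, followed by Nr4a3 at 0.473, and Ier2 lay farthest at 1.35. The members' mean profile was lowest in the 2-m mice, highest in the 20-m mice and between them at 28 m, where replicate 3 was the lowest of the older mice. Bcl2l1, which encodes the survival protein BCL-XL, read 631, 518 and 454 at 2 m, 964, 920 and 960 at 20 m, and 696, 841 and 634 at 28 m. Sqstm1, which encodes the autophagy receptor p62, read 18337, 17285 and 17036 at 2 m, 22260, 23387 and 22223 at 20 m, and 22183, 21759 and 20699 at 28 m.

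Other early response genes were read from lists of transcription factors and IER genes, of feedback and stress regulators and of effectors, and they moved in both directions. Of 18 genes tested on the first list, which holds early transcription factors and IER genes, 4 were higher (Maff, Ier3, Csrnp1 and Ier5) and Klf2 was lower at 20 m, whereas at 28 m Ier3 and Ier5 were higher and Klf2 and Nfil3 lower. Over all genes tested, 16.6% were called at 20 m and 13.8% at 28 m. The medians over this list were 0.05 and -0.14 on the log2 scale. Maff, a small MAF factor that lacks an activation domain, read 98.1, 81.1 and 79.4 at 2 m, 228, 148 and 200.5 at 20 m, and 98.7, 159 and 94.4 at 28 m. Its log2 fold change at 20 m was 1.13 ± 0.24 (adjusted p = 0.00806, limma). Ier3, a survival gene of the early response, differed by 0.83 at 20 m (adjusted p = 0.00756, limma) and 0.81 at 28 m (adjusted p = 0.00970). Klf2, which is known for its response to flow in endothelium, fell by 0.51 at 20 m and by 0.71 at 28 m (adjusted p = 0.0389 and 0.00899, limma), and its 20-m call was lost without 2-m replicate 1 (0.141). Ier5 was not called at either age without that library (adjusted p = 0.0518 and 0.0663, limma). Over all alternatives the log2 fold change of Klf2 at 20 m was -0.65 to -0.40. That of Ier5 was 0.40 to 0.63 at 20 m and 0.38 to 0.61 at 28 m. Some relatives of the members, named after their values were seen, were not called. Fosl2 (-0.23 and -0.11), Jund (-0.21 and -0.19), Egr2 (-0.42 and -0.27) and Egr3 (-0.37 and 0.16) are given by their log2 fold changes at 20 m and 28 m, and Fosl1 and Egr4 did not pass the filter.

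Of 21 feedback and stress regulators tested, 4 were higher at 20 m (Per1, Dusp1, Tiparp and Sik1) and 3 lower (Gadd45b, Gadd45g and Sgk1). At 28 m, 2 were higher (Sik1 and Plk2) and 4 lower (Gadd45b, Gadd45g, Sgk1 and Nfkbia). Against these counts stood the 16.6% and 13.8% of all genes called at the 2 ages. Dusp1, Tiparp and Nfkbia are named outside the rule for named genes, after their values were seen. Per1, a clock gene that CREB also induces, was 1507, 1457 and 1393 at 2 m, 2660, 2946 and 2911 at 20 m, and 1490, 1574 and 1314 at 28 m. Thus only the 20-m mice stood apart, and the log2 difference was 0.97 from 2 m to 20 m (adjusted p = 3.59e-05, limma) and -0.96 from 20 m to 28 m (adjusted p = 0.000320). Sik1, a CREB-induced kinase that restrains CREB coactivators, was higher by 0.55 at 20 m and 0.75 at 28 m (adjusted p = 0.00825 and 0.00130, limma). Gadd45b and Gadd45g, which relay stress signals to p38 and JNK, fell by 1.07 and 0.65 at 20 m and by 1.38 and 1.28 at 28 m. Gadd45g read 2394, 2116 and 1914 at 2 m, 1345, 1336 and 1393 at 20 m, and 702, 1273 and 753 at 28 m. At 20 m both were no longer called without 2-m replicate 1 (adjusted p = 0.0550 and 0.0948, limma). Over all 21 alternatives the log2 fold change at 20 m was -1.49 to -0.86 for Gadd45b and -0.75 to -0.57 for Gadd45g. Sgk1, a kinase induced by glucocorticoids, fell by 0.53 and 0.83 (adjusted p = 0.00184 and 9.88e-05, limma). Plk2 was called at 28 m in 6 of 21 alternatives only, and its log2 fold change of 0.72 was 0.46 without 2-m replicate 3.

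Effectors likewise divided. Of 8 tested, Ctgf and Cyr61 were higher and Hbegf was lower at 20 m, and at 28 m Cyr61 was higher and Hbegf lower, against the same shares of 16.6% and 13.8% over all genes. Ctgf and Cyr61, matrix proteins downstream of YAP and SRF, were higher by 0.82 and 0.68 at 20 m (adjusted p = 0.00829 and 0.00917, limma). Cyr61 read 1886, 1655 and 1102 at 2 m, 2544, 2428 and 2311 at 20 m, and 2414, 2433 and 2271 at 28 m, all older mice being above all 2-m mice. Without 2-m replicate 3, its lowest library, Cyr61 was still called at 28 m with a log2 fold change of 0.42 in place of 0.65. Hbegf, an EGF receptor ligand, fell by 0.74 at 20 m and by 1.37 at 28 m (adjusted p = 0.00955 and 0.000185, limma). Il6, Ptgs2, Cxcl1, Vgf and Amd1 did not pass the filter.

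**Figure D4:**
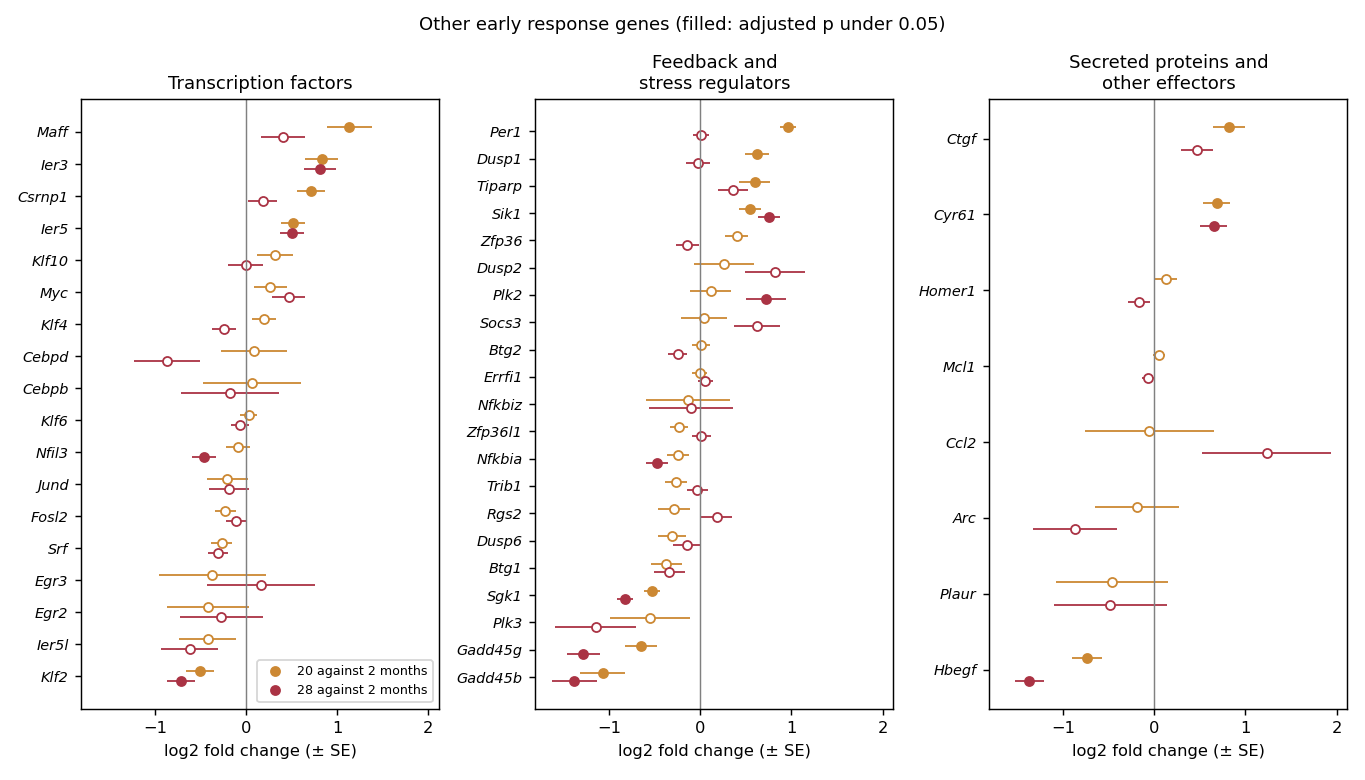
Log2 fold change (horizontal axis) ± SE of other early response genes in 3 lists, at 20 months (orange) and 28 months (red) against 2 months; filled points have an adjusted p under 0.05 over all genes tested. Maff and Per1 are filled at 20 months only, and Hbegf, Gadd45b and Gadd45g are filled and left of 0 at both ages.

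Kinases and factors that act on these genes changed in both directions. Of 27 tested, 2 were higher and 5 lower at 20 m, where 16.6% of all genes were called, and 3 were higher and 3 lower at 28 m, where 13.8% were called. Mkl1, a coactivator of SRF that senses actin, fell by 0.91 at 20 m and by 0.54 at 28 m (adjusted p = 0.00271 and 0.0413, limma). The 28-m call was kept in 14 of 21 alternatives, and without 2-m replicate 3 it was lost and the log2 fold change was -0.35. Elk1, an ERK-responsive partner of SRF, fell by 0.65 at 20 m (adjusted p = 0.00853, limma). Map2k3, a kinase upstream of p38, read 9408, 8765 and 8805 at 2 m, 5496, 5607 and 5745 at 20 m, and 5560, 5506 and 5958 at 28 m. It was lower in all older mice, by 0.68 and 0.66 on the log2 scale (adjusted p = 6.57e-05 and 8.61e-05, limma). Map2k6, its relative, fell by 0.56 at 28 m (adjusted p = 0.00778, limma). Mef2a, a muscle factor of calcium signalling, was higher by 0.67 and 0.68 (adjusted p = 0.00388 and 0.00384, limma). Rps6ka1 fell at 20 m by 0.50 (adjusted p = 0.0453, limma). Mef2c, higher at both ages, Crtc3, lower at 20 m, and Crtc1, higher at 28 m, complete the counts and were named after their values were seen. The calls of Crtc3 and Crtc1 were each kept in 10 of 21 alternatives, and that of Rps6ka1 in 11 of 21. Srf (-0.27 and -0.30) and Creb1 (-0.07 and -0.08) did not pass.

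Heat shock genes belong to another rapid stress response. Of 10 tested, Hspa1a and Bag3 were higher and Hspe1 lower at 20 m, and Hspa1a, Hspa1b and Bag3 were higher at 28 m. Over all genes, 16.6% were called at 20 m and 13.8% at 28 m, with 9.42% and 7.53% called higher. Bag3, a cochaperone of the muscle Z-disc, differed by 0.52 and 0.54 on the log2 scale (adjusted p = 0.000922 and 0.000689, limma). Hspa1a, an inducible HSP70 gene, differed by 0.84 and 1.01 (adjusted p = 0.00886 and 0.00344, limma). Hspa1a and Hspa1b are near-identical, and the division of reads between them is uncertain. Of the 6 other AP-1 related factors tested, Atf6 and Atf7 were higher and Atf4, the integrated stress response factor that induces Atf3, was lower at both ages, against 16.6% and 13.8% of all genes called. Atf4 read 7427, 6952 and 7036 at 2 m, 5247, 5425 and 5630 at 20 m, and 4716, 5305 and 4626 at 28 m, all older mice being below all 2-m mice. Its log2 difference was -0.39 at 20 m (adjusted p = 0.00432, limma) and -0.55 at 28 m (adjusted p = 0.000496). Atf7 was called in 11 of 21 alternatives at each age. Without 2-m replicate 1, calls in these lists were also lost at 20 m for Tiparp (adjusted p = 0.0827, limma), Rps6ka1 (0.131), Hspe1 (0.0703) and Atf7 (0.105). At 28 m they were lost for Nfil3 (0.119), Nfkbia (0.0731), Plk2 (0.147), Hspa1b (0.0826), Mef2c (0.0528), Crtc1 (0.114) and Atf7 (0.106). Over all alternatives at 20 m the log2 fold changes were 0.52 to 0.72 for Tiparp and -0.60 to -0.38 for Rps6ka1. They were -0.37 to -0.25 for Hspe1 and 0.45 to 0.71 for Atf7. At 28 m the ranges were -0.57 to -0.30 for Nfil3, -0.60 to -0.37 for Nfkbia and 0.46 to 1.04 for Plk2. Hspa1b ranged from 0.84 to 1.12, Mef2c from 0.31 to 0.45, Crtc1 from 0.35 to 0.53 and Atf7 from 0.44 to 0.71.

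MBD-seq gave 1 pool per age and therefore no test between ages. In the 500-bp bin that holds the start used for these windows, the 8 members with a RefSeq window had 0 to 1.82 normalized counts in 2-m muscle, 0 to 4.21 at 20 m and 0 to 10.2 at 28 m, where Nr4a3 gave the highest value. The medians over members were 0.455, 0 and 2.55, and those over the 9478 tested genes with a value were 0.910, 0.842 and 3.82. Both medians were highest in the 28-m pool. Averaged over bins within 2 kb, the members' medians of 2.07, 2.90 and 4.74 were below the medians of 12.4, 11.9 and 12.8 over all tested genes. Nr4a2 was the exception, with 24.4, 22.5 and 18.5 in muscle. Around Fos the 2-kb mean was 3.30, 3.05 and 6.29 in muscle and 14.3, 20.8 and 24.0 in T cells, and around Nr4a1 it was 4.65, 2.99 and 4.46 in muscle and 12.5, 17.0 and 21.1 in T cells. The bins at both starts, which for Nr4a1 is that of its shorter transcript, held at most 3.19 counts in every pool. In the same 250-base windows the members had 15 to 44 CpGs, against a median of 16 over the tested genes.

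The members lie on 8 chromosomes in GRCm38.p6. Fos spans chr12:85473890-85477274, Fosb chr7:19302696-19310118, Jun chr4:95049036-95052222 and Junb chr8:84976909-84978748. Egr1 spans chr18:34861207-34864956, Atf3 chr1:191170296-191183333 and Ier2 chr8:84661331-84662852. Nr4a1 spans chr15:101253902-101274795, Nr4a2 chr2:57106830-57124003 and Nr4a3 chr4:48045078-48086447. Jun and Nr4a3 share chromosome 4, and Junb and Ier2 share chromosome 8. Atf3 overlaps the small RNA gene Gm24748 by 108 bases.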

How the data were processed

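RNA-seq covered 9 muscle libraries, and MBD-seq covered pools of muscle and T cells. The deposited values are a signal made by the authors, who trimmed reads with Trim Galore, aligned RNA-seq reads with Hisat2 and MBD-seq reads with Bowtie2 to mm10, counted them per refSeq gene (htseq-count) or per 500-bp bin (bedtools), and divided each library by a DESeq2 size factor. The submitters' processing notes also name TopHat. The muscle MBD-seq columns do not name which of the 2 rounds of capture they hold. All RNA values (100%) were whole multiples of 1 read within 0.01 reads, so read counts were recovered; the reads on genes per library (20203833 to 71115244) set the precision. Rows that name no gene (unaligned and unassigned reads) were left out.

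Genes with a mean of at least 10 normalized counts were fitted with limma 3.58.1 (trend) in R 4.3.3 on log2(normalized count + 1) of all 9 libraries, with age as the only term and Benjamini-Hochberg adjustment over 13178 genes. Fold changes on this scale understate the change of low genes. The script was tested on simulated data. As the table holds no raw counts, the study's DESeq2 test, like edgeR 4.0.16 (DESeq2 1.42.0), was an alternative on recovered reads. The other alternatives were other pseudocounts, filters and scalings, a replicate block, a term for replicates 3, only the libraries compared, and leaving out libraries. The term for replicates 3, the fit to replicates 1 and 2, the alternatives for all genes and for the other lists, and the ratios were chosen after seeing the data.

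All 10 members are named. Of each other early response list, called genes are named (at most 6 by largest change), besides the 8 nearest profiles; relatives and upstream factors that were not called were added after their values were seen. One gene was left out of the effector list and is in none of its counts. Members and lists were chosen with earlier results of these data known. Each mouse gave 1 library. Time of day at collection and delay before freezing are not given in the sources used here.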

Additional observations from a re-analysis of the deposited data

How the results depend on the processing

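Of 826 comparisons of a member's difference under an alternative, 781 kept their direction and side of the threshold, 17 lost the call, 10 gained it and 18 reversed, all of the last for differences that were not called. Of 1733 comparisons for called genes of the other lists, 1494 kept the call and 0 reversed. The members called at 20 m against 2 m numbered 3 with libraries rescaled to the same sum, with only the libraries compared and with replicates 1 and 2 only, and 3 to 5 when 1 library was left out; without 2-m replicate 3, 20-m replicate 2 or 20-m replicate 3 the count was 3. At 28 m against 20 m it was 0 with the same sum and 2 with DESeq2. Over all genes, the counts called with the same sum were 586, 554, 24 and 796 (20 m against 2 m, 28 m against 2 m, 28 m against 20 m, both older ages against 2 m), against 2181, 1814, 50 and 2649. With replicates 1 and 2 only they were 1099, 712, 11 and 1327. At 28 m against 20 m they were 138 with the replicate block, 103 with the term for replicates 3, 76 with only those libraries and 228 with DESeq2. Leaving out 1 library gave 1081 to 2231, 963 to 1846, 14 to 88 and 1646 to 2850; the lowest count of each came without 20-m replicate 1, 28-m replicate 1, 20-m replicate 1 and 2-m replicate 1. Libraries of equal number are different mice, and their deviations from the age means correlated at -0.04 to 0.16 over genes, above 0.1 for all 3 pairs only among those numbered 3, so the numbers were not treated as a paired design. The replicate block added a call for Nr4a3 at 28 m (adjusted p = 0.0407, limma) and for Nr4a1 in both older ages (0.0306). Reversed values were 0.0735 for Nr4a2 at 20 m with quantile normalization, 0.0022 for Fosb with the same sum and 0.0264 for Ier2 with replicates 1 and 2, the latter pair at 28 m against 20 m. Leaving out 1 library gave -0.25 to 0.11 for Ier2, -0.30 to 0.22 for Nr4a2 at 20 m against 2 m, -0.36 to 0.0047 for Ier2 at 28 m against 2 m, -0.20 to 0.13 for Fosb, -0.13 to 0.0315 for Jun, -0.12 to 0.46 for Atf3, -0.25 to 0.0288 for Ier2 at 28 m against 20 m, -0.30 to 0.0593 for Ier2 in both older ages. In MBD-seq the medians over members within 2 kb were 2.07, 2.90 and 4.74. A TATA box was found in 2 windows with 50 bases after the start included. The causes were not tested. Fosb had the fewest reads, as few as 5 in a library, and 3 mice per age limit every test.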
